A study of Mus musculus with 3 samples.

Results

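The cells described here were primary mouse liver cells in which long noncoding RNAs that stay in the nucleus took an unusually large part of the captured RNA. For every retained cell the counts of Malat1, Neat1 and Gm26917 were summed and divided by all nuclear-encoded counts, and the cells with the highest 5% of these shares in each library were taken, 434 of 8674 retained cells. They are called nuclear-RNA-rich cells below and are set against the other 8240 cells of the same libraries. Hepatocytes had been isolated by collagenase perfusion from wild-type (WT) mice after 12 weeks on a diet and their transcripts counted cell by cell in droplets, from the 3′ end, as unique molecular identifiers (UMIs), 1 for each captured molecule. The diets were a 60% high fat diet with 0.25% hyodeoxycholic acid, a bile acid (HFD_HDCA), the same 60% high fat diet alone (HFD), and a normal diet (ND), with 1 library each. The sources used here do not give the number of mice in a library, their age or their sex.

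Malat1 and Neat1 are transcribed from neighbouring loci on chromosome 19 and remain in the nucleus, Malat1 in nuclear speckles, where splicing factors gather, and Neat1 as the scaffold of paraspeckles. Some protein-coding transcripts are also held in the nucleus. In mouse liver the mRNA of Mlxipl, which encodes the glucose-sensing transcription factor ChREBP, is the standard example, whereas mRNAs of secreted plasma proteins and of respiratory chain subunits are mostly cytoplasmic. Transcripts with introns that are spliced late, among them those of the Clk kinases and of many splicing factors, are likewise known to wait in the nucleus.

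The rule took 150 of 3000 retained HFD_HDCA cells, 145 of 2898 HFD cells and 139 of 2776 ND cells. The share was continuous, with no gap at the threshold. The lowest share among nuclear-RNA-rich cells was 1.31% in HFD_HDCA, 2.16% in HFD and 1.59% in ND, and the highest among the other cells was 1.31%, 2.15% and 1.59% in the same order. Median shares were 2.59%, 3.73% and 2.43% in nuclear-RNA-rich cells of HFD_HDCA, HFD and ND, against 0.293%, 0.264% and 0.382% in the other cells. These values chose the cells and are given as a description. Malat1 made 85.8% of the 3-gene counts of the HFD_HDCA nuclear-RNA-rich cells, 89.8% in HFD and 90.4% in ND, so the choice was mostly a choice by Malat1. Gm26917 contributed 73, 62 and 55 UMIs to the nuclear-RNA-rich cells of HFD_HDCA, HFD and ND, against 181, 98 and 153 UMIs in the far more numerous other cells.

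**Figure D1:**
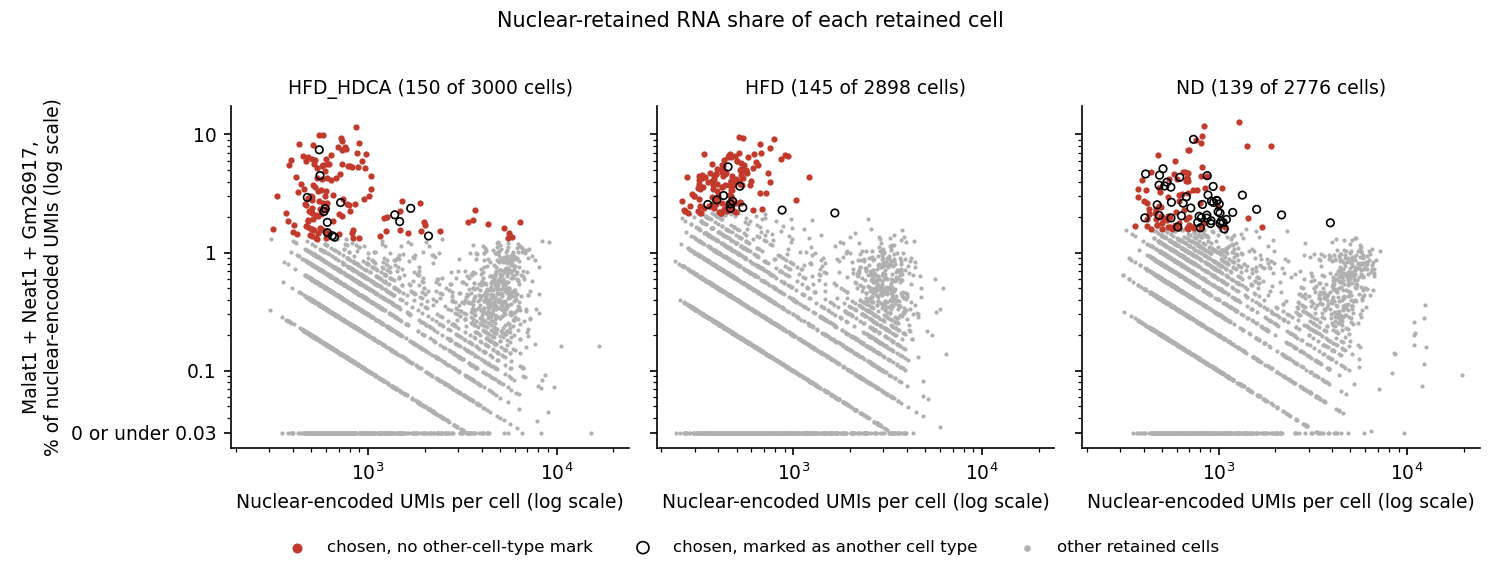
Each point is a retained cell, with its nuclear-encoded UMIs on the x axis (log scale) and the percentage of them from Malat1, Neat1 and Gm26917 on the y axis (log scale, with shares at or near 0 drawn at the bottom). The nuclear-RNA-rich cells (filled red, or open black circles where marked as another cell type) lie almost all among the shallow cells, and the open circles are most frequent in ND.

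Most nuclear-RNA-rich cells were shallow. Their median was 744.5 UMIs in HFD_HDCA, 536 in HFD and 780 in ND, against 1158, 926 and 972 UMIs in the other cells, a ratio of 0.675 ± 0.115 (SD, n = 3 libraries). In each library the cells formed a shallow and a deep cloud, and 11 of 150 HFD_HDCA, 0 of 145 HFD and 2 of 139 ND nuclear-RNA-rich cells reached 2000 nuclear-encoded UMIs, a limit set after seeing the plot. The 0 of 145 allows a share of up to 2.51% (exact binomial interval, 95%, counting error only). Among the other cells 945 of 2850, 750 of 2753 and 635 of 2637 reached it. The share of a shallow cell is also noisier, and how far this moved the choice was measured by choosing on a random 50% of each cell's UMIs. In the UMIs not used for the choice, the 3 genes made 2.89%, 3.75% and 2.73% of nuclear-encoded counts in nuclear-RNA-rich cells of HFD_HDCA, HFD and ND, against 0.357%, 0.348% and 0.435% in the other cells.

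The label of hepatocytes held for most of these cells and not for all. A barcode was called marked when it carried at least 2 UMIs from any one of 8 marker lists of other liver cell types (endothelial, Kupffer, stellate, cholangiocyte, T and NK, B and plasma, neutrophil and monocyte, dendritic). Marked barcodes were 14 of 150 nuclear-RNA-rich cells in HFD_HDCA, 11 of 145 in HFD and 48 of 139 in ND, against 66 of 2850, 52 of 2753 and 82 of 2637 of the other cells. In ND, 39 of the 139 nuclear-RNA-rich cells (28.1%, exact binomial 95% interval 20.8 to 36.3%) carried endothelial markers, against 60 of 2637 other cells (2.28%). The 12 hepatocyte markers (albumin, apolipoproteins, fibrinogen chains and the like) made 9.78%, 4.73% and 7.29% of nuclear-encoded counts in unmarked nuclear-RNA-rich cells of HFD_HDCA, HFD and ND, against 12.4%, 10.5% and 12.0% in unmarked other cells. In marked nuclear-RNA-rich cells they made 2.51%, 2.22% and 2.33%. The unmarked cells thus carried hepatocyte RNA at a lower share. Comparisons below are over all retained barcodes unless stated, and many are also given without the marked ones. In those, the highest 5% of shares was taken anew among unmarked cells. That gave 146, 142 and 133 cells in HFD_HDCA, HFD and ND, of which 136, 134 and 91 were nuclear-RNA-rich cells as first defined. Where single unmarked nuclear-RNA-rich cells are counted, they are those 136, 134 and 91. No pair of libraries shared more than 5 retained cell barcodes, and none was nuclear-RNA-rich in both.

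Counts were summed per library over nuclear-RNA-rich and over other cells and compared by edgeR's quasi-likelihood test with library as a block, Benjamini-Hochberg adjusted over 2741 genes. Levels are counts per 1000000 nuclear-encoded counts without the 3 genes of the rule (CPM). At an adjusted p of 0.05, 425 genes (15.5%) were higher and 231 (8.43%) lower in nuclear-RNA-rich cells. Without marked barcodes 464 (17.4%) of 2663 genes were higher and 216 (8.11%) lower. The 2 comparisons shared 354 of the higher genes (83.3% of the first set and 76.3% of the second) and 135 of the lower (58.4% and 62.5%). The 3 libraries are the replicates here and also differ in diet. All other genes stand in the denominator of the share that chose the cells, and in the UMIs left out of the choice in the random split 194 genes of 1443 (13.4%) were higher and 83 (5.75%) lower. Over all barcodes the calls fell to 34 higher (2.11%) and 7 lower (0.435%) without the HFD_HDCA library, to 230 (11.6%) and 31 (1.56%) without ND, and to 298 (13.3%) and 102 (4.55%) without HFD. Without marked barcodes the same omissions gave 245 and 88, 248 and 34, and 317 and 134.

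The number of genes called also differed with the depth of the cells taken. The settings below also changed which cells were chosen and which genes were tested, and the part of depth alone was not tested. When the highest 5% of shares was taken within each of 5 bins of UMI depth of a library, so that the median depth ratio was 0.997, 513 of 4843 genes were higher (10.6%) and 367 lower (7.58%), and without marked barcodes 13.9% were higher and 9.37% lower. Among cells of at least 1000 nuclear-encoded UMIs 85 of 4064 genes were higher (2.09%) and 79 lower (1.94%). There the highest 5% was taken anew and gave mostly different cells. Of the 76, 59 and 56 cells so chosen in HFD_HDCA, HFD and ND, 29, 3 and 20 were nuclear-RNA-rich cells as defined above. Their summed 3-gene share was 1.29%, 1.21% and 1.71%, against 2.86%, 4.17% and 3.24% in the nuclear-RNA-rich cells. Among cells under 2000 UMIs 19.3% of 1869 genes were higher and 12.9% lower. At a limit of 20% mitochondrial counts 8.96% of genes were higher and 1.77% lower. Counts of list members under these settings, given below, are to be read against these shares.

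The genes of the rule carried one another. As genes of the rule they are described here and no p-value is given. Cells chosen by Malat1 alone were largely the nuclear-RNA-rich cells, 141 of 150, 131 of 145 and 123 of 139 in HFD_HDCA, HFD and ND. By Neat1 alone the overlap was 82, 72 and 51 cells. When cells were chosen by Malat1 alone, Neat1 stood at 3452, 3041 and 2151 CPM in the chosen cells of HFD_HDCA, HFD and ND, against 438, 253 and 366 CPM in the other cells. That was a log2 fold change of 3.16 (SE 0.27), in a comparison in which 15.1% of 2811 genes were higher. When cells were chosen by Neat1 alone, Malat1 stood at 21290, 25542 and 18582 CPM in the chosen cells, against 3268, 3435 and 4192 CPM in the others. That was a log2 fold change of 2.71 (SE 0.15), with 15% of 2423 genes higher. Without marked barcodes the log2 fold changes were 3.26 for Neat1 and 2.82 for Malat1, with 15.1% of 2864 and 16.2% of 2334 genes higher. Gm26917 was too low to be tested.

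Mlxipl had the largest log2 fold change of the named genes. It stood at 958, 2085 and 1614 CPM in nuclear-RNA-rich cells of HFD_HDCA, HFD and ND, against 92.9, 117 and 237 CPM in the other cells. Every library showed the difference and the 2 sets of values did not overlap. The log2 fold change was 3.56 (SE 0.28, edgeR adjusted p = 1.7e-07), and 3.74 without marked barcodes. Mlxipl was called in all 24 alternative analyses, with log2 fold changes between 1.24 and 4.73. The gene lies on the plus strand of chromosome 5 at 135089890-135138382 (mm10, GENCODE M21), with 17 exons in its longest transcript.

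Single cells showed the same difference despite their lower depth. Among unmarked nuclear-RNA-rich cells, 69 of 136 in HFD_HDCA (50.7%), 82 of 134 in HFD (61.2%) and 59 of 91 in ND (64.8%) had a Mlxipl UMI. Among unmarked other cells the shares were 16.1%, 13.7% and 28.8%, at median depths of 1066.5, 788 and 825 nuclear-encoded UMIs against 600, 443 and 616 in nuclear-RNA-rich cells. In marked barcodes, nuclear-RNA-rich or not, 8.75% (7 of 80), 1.59% (1 of 63) and 16.9% (22 of 130) had a UMI in HFD_HDCA, HFD and ND. Those that were not nuclear-RNA-rich also held hepatocyte marker RNA, at 4.82%, 5.38% and 5.21% of nuclear-encoded counts. In percentage points the gap between unmarked other cells and marked barcodes was smallest in HFD_HDCA.

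All 4 mRNAs listed as nuclear-retained in mouse liver were tested and all 4 were higher, with a median log2 fold change of 2.74 against -0.02 over all genes tested. Nlrp6, an inflammasome sensor, stood at 259, 840 and 239 CPM in nuclear-RNA-rich cells of HFD_HDCA, HFD and ND, against 46.2, 63.5 and 54.2 CPM in the other cells (log2 fold change 2.97, SE 0.30, edgeR adjusted p = 1.3e-06). Gcgr, the glucagon receptor, stood at 378, 855 and 528 CPM against 84.8, 114 and 124 CPM in the other cells (2.52, SE 0.26, edgeR adjusted p = 1.3e-06). Chka, choline kinase alpha, which opens the synthesis of phosphatidylcholine, stood at 154, 165 and 379 CPM against 30.7, 49.8 and 122 CPM (2.01, SE 0.29, edgeR adjusted p = 4.3e-05). Within 5 bins of depth all 4 were higher with a median of 1.22, and among cells of at least 1000 UMIs 2 of 4 were, with a median of 0.81. There Gcgr was at 0.28 (edgeR adjusted p = 0.61) and Nlrp6 at 0.48 (edgeR adjusted p = 0.42), and Mlxipl and Chka were still called. HFD cells held the highest Nlrp6 and Gcgr levels and ND cells the highest Chka level. The list was compiled with earlier results of these data known.

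**Figure D2:**
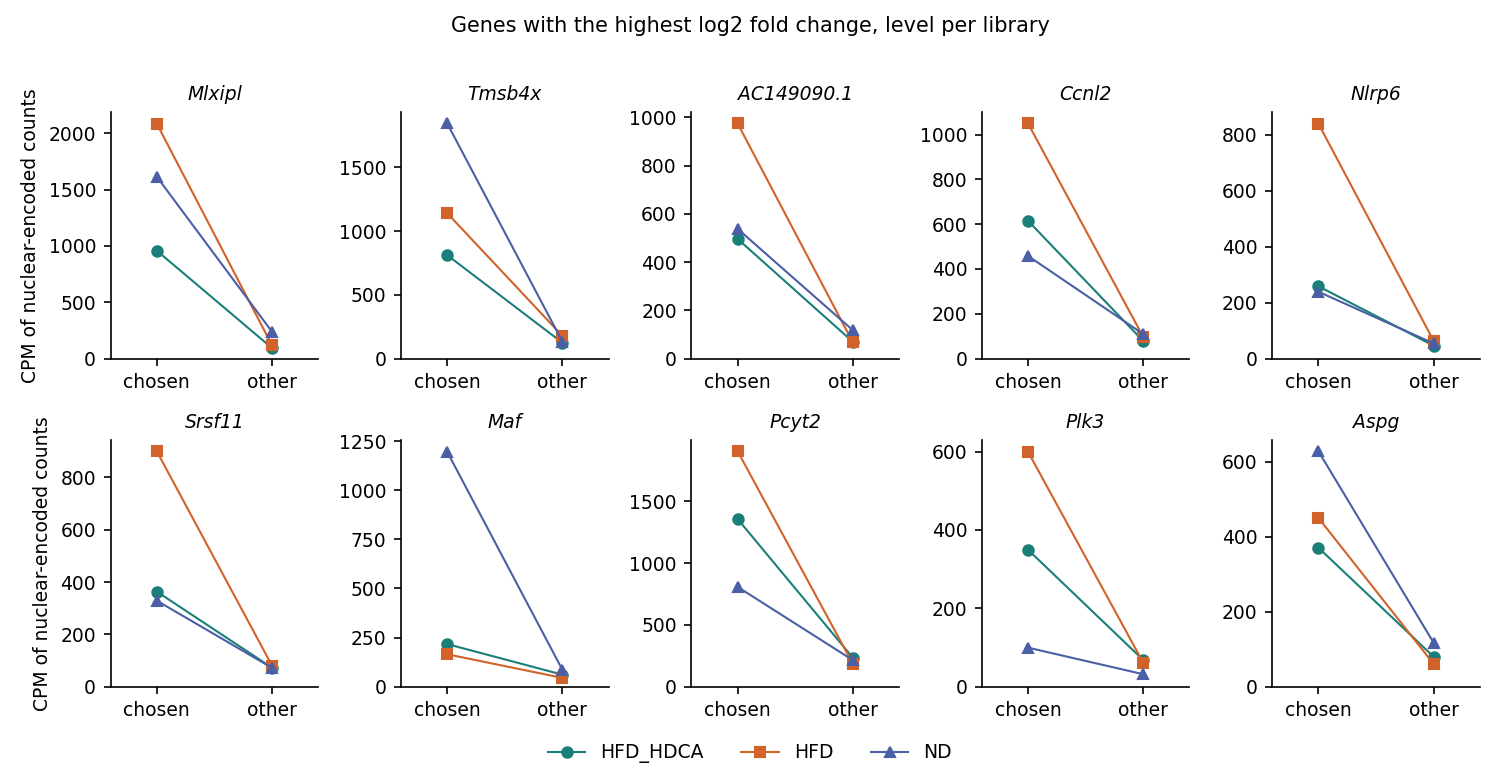
Each panel gives the level in CPM (linear axis from 0) of one of the 10 named genes with the highest log2 fold change, in nuclear-RNA-rich cells (chosen, left) and in the other cells (other, right), with 1 line per library. All 10 were higher in all 3 libraries, and Maf was far higher in ND, at 1196 CPM, than in the other libraries.

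Of the 10 highest named genes 2, Ccnl2 and Srsf11, serve splicing. Ccnl2, a cyclin L found in nuclear speckles, stood at 615, 1050 and 458 CPM in nuclear-RNA-rich cells of HFD_HDCA, HFD and ND, against 78.2, 96.6 and 110 CPM in the other cells (log2 fold change 2.98, SE 0.28, edgeR adjusted p = 1.3e-06). Srsf11, a serine and arginine rich splicing factor, stood at 364, 900 and 329 CPM against 72.1, 79.9 and 71.8 CPM (2.83, SE 0.29). Luc7l2, a component of the U1 particle that recognises 5′ splice sites, stood at 909, 1650 and 827 CPM against 200, 202 and 202 CPM (2.55, SE 0.25). HFD cells had the highest level of all 3. Of 25 tested speckle, paraspeckle and splicing proteins 21 were higher and none lower (median 1.35), among them Rbm25 at 2.50, Prpf4b at 2.40 and Son, the scaffold of speckles, at 1.55. Without marked barcodes 18 of 24 were higher. Within 5 bins of depth 22 of 32 were higher with a median of 0.69, among cells of at least 1000 UMIs 5 of 31 (median 0.48), and without the HFD_HDCA library 5 of 16 (median 1.69). The summed level of the whole list of 33 was 8853, 12392 and 10802 CPM in nuclear-RNA-rich cells, against 4064, 4222 and 4546 CPM in the others.

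Of 9 tested genes known for detained introns or of the Clk family, 8 were higher with a median log2 fold change of 2.17, and the same count held without marked barcodes. Clk1, a kinase that phosphorylates splicing factors, stood at 357, 720 and 399 CPM in nuclear-RNA-rich cells of HFD_HDCA, HFD and ND, against 95.2, 98.0 and 86.9 CPM in the other cells (2.46, SE 0.26, edgeR adjusted p = 2.3e-06). Ogt, which attaches N-acetylglucosamine to nuclear and cytoplasmic proteins, had a log2 fold change of 2.46 (SE 0.33), and Ccnl1 one of 2.22 (SE 0.29). Taken within 5 bins of depth, 8 of 10 were higher (median 1.04), and among cells of at least 1000 UMIs 1 of 9 (median 0.78). Of 12 tested chromatin regulators 10 were higher and none lower (median 1.29), led by Atrx, a chromatin remodeller, at 2.34 and Kmt2e, a SET domain protein, at 2.02. Without marked barcodes 8 of 10 were higher, within 5 bins of depth 13 of 25 (median 0.73), among cells of at least 1000 UMIs 1 of 20 (median 0.49), at a limit of 20% mitochondrial counts 5 of 11, and without HFD_HDCA 1 of 2. Nsd3, a histone methyltransferase, stood at 1.85.

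2 transcripts over ribosomal RNA repeats on chromosome 17 were also higher. Gm42418 stood at 20161, 43403 and 34537 CPM in nuclear-RNA-rich cells of HFD_HDCA, HFD and ND, against 5343, 7606 and 8174 CPM in the other cells (log2 fold change 2.31, SE 0.36, edgeR adjusted p = 0.00012). AY036118 stood at 357, 900 and 668 CPM against 93.5, 162 and 177 CPM (2.24, SE 0.24). AY036118 lies within Gm42418 on the opposite strand, and Gm26917, a gene of the rule, ends just upstream of Gm42418 on the same strand, so the 3 may share reads and are uncertain as separate genes. Of 19 other nuclear or chromatin lncRNAs only 2 were abundant enough to test over all barcodes and neither was called. Within 5 bins of depth 3 of 6 were higher and none lower (median 0.83), where 10.6% of all genes were higher. Without marked barcodes this was also 3 of 6 (median 0.82), and among cells of at least 1000 UMIs 1 of 4 (median 0.80). Summed over the whole list, these lncRNAs stood at 951, 975 and 1335 CPM in nuclear-RNA-rich cells, against 473, 387 and 485 CPM in the others.

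The other genes among the 10 highest were on none of these lists. Pcyt2, an enzyme of phosphatidylethanolamine synthesis, stood at 1357, 1905 and 807 CPM in nuclear-RNA-rich cells of HFD_HDCA, HFD and ND, against 234, 185 and 214 CPM in the other cells (log2 fold change 2.75, SE 0.28). Aspg, an asparaginase, reached 2.62 and Plk3, a polo-like kinase induced by stress, 2.68. AC149090.1, on the unplaced scaffold JH584304.1, reached 3.09 (SE 0.30). Tmsb4x, an actin-binding peptide abundant in endothelial and blood cells, stood at 811, 1140 and 1843 CPM against 124, 177 and 132 CPM (3.21, SE 0.26), and Maf, a transcription factor of sinusoidal endothelium, at 217, 165 and 1196 CPM against 60.9, 44.6 and 85.0 CPM (2.80, SE 0.35). Neither was abundant enough to be tested without marked barcodes. Among unmarked cells between the 95th and 98th percentile of the share, Tmsb4x stood at 201, 112 and 0 CPM in HFD_HDCA, HFD and ND, and above the 98th at 0, 0 and 264 CPM, on at most 23 UMIs a bin. Maf stood at 26.2, 0 and 55.1 CPM and at 28.0, 0 and 58.6 CPM in the same bins, on at most 3 UMIs.

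Immediate early genes, which are switched on within minutes of a stimulus or of tissue dissociation, were higher for 8 of 11 tested (median 1.50), and for 9 of 11 without marked barcodes. Jun stood at 1315, 1740 and 618 CPM in nuclear-RNA-rich cells of HFD_HDCA, HFD and ND, against 491, 440 and 311 CPM in the other cells (log2 fold change 1.61, SE 0.25, edgeR adjusted p = 8.7e-05). Nr4a1, an orphan nuclear receptor, had a log2 fold change of 1.86, Ier2 one of 1.74 and Btg2, an antiproliferative target of p53, one of 1.72. Without the HFD_HDCA library none of the 11 was called over all barcodes, at a median of 1.75, where 2.11% of all genes were higher. In the choice within 5 bins of depth 9 of 13 were higher (median 0.65), and among cells of at least 1000 UMIs 4 of 11 (median 0.40). Trp53inp1, another p53 target, was at 1.62. Of 8 tested heat shock genes 1 was called, Hspe1, the mitochondrial co-chaperonin, at -0.91, and of 12 endoplasmic reticulum stress genes 1, Atf4, at 1.14. Over all genes 15.5% were higher and 8.43% lower.

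On the lower side stood mRNAs of the respiratory chain and of abundant hepatocyte products. All 44 nuclear-encoded oxidative phosphorylation genes were tested, 26 were lower and none higher, with a median log2 fold change of -0.83, and 24 were lower without marked barcodes (median -0.71). Cox5a, a subunit of cytochrome c oxidase, stood at 231, 105 and 149 CPM in nuclear-RNA-rich cells of HFD_HDCA, HFD and ND, against 462, 434 and 483 CPM in the other cells (-1.35, SE 0.28, edgeR adjusted p = 0.0017). Uqcrq, a subunit of complex III, stood at 874, 525 and 668 CPM against 1588, 1518 and 1731 CPM (-1.10, SE 0.24, edgeR adjusted p = 0.0024). Ndufv3, of complex I, reached -1.50 on 17, 2 and 12 UMIs. The sum of the list was 17399, 10667 and 14947 CPM in nuclear-RNA-rich cells, against 28811, 25500 and 29991 CPM in the others.

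The count of lower oxidative phosphorylation genes moved with the count over all genes. It was 4 of 44 without ND, where 1.56% of all genes were lower, 13 without HFD (4.55%), 0 without HFD_HDCA (0.435%) and 5 at a limit of 20% mitochondrial counts (1.77%), with medians between -0.81 and -0.64. Among cells under 2000 nuclear-encoded UMIs it was 35 (12.9% of all genes, list median -0.97), within 5 bins of depth 34 (7.58%, -0.48), and among cells of at least 1000 UMIs 3 (1.94%, -0.23). RNA made by the mitochondrial genome itself moved the other way in point values. It was 18.4%, 20.1% and 14.1% of all counts in nuclear-RNA-rich cells of HFD_HDCA, HFD and ND, against 10.9%, 13.5% and 13.8% in the other cells, a mean difference of 4.83 ± 3.91 percentage points (SD, n = 3; exact two-sided sign-flip permutation p = 0.25, the smallest that 3 libraries allow). Without marked barcodes the mean difference was 6.77 ± 0.944 points. At a limit of 20% mitochondrial counts it was -0.423 points.

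Secreted and marker proteins of hepatocytes were lower in part, and their counts differed between choices of cells. Apoa2, of high density lipoproteins, stood at 10825, 5731 and 6417 CPM in nuclear-RNA-rich cells of HFD_HDCA, HFD and ND, against 20401, 16580 and 17379 CPM in the other cells (log2 fold change -1.16, SE 0.32, edgeR adjusted p = 0.013). Apoc1, Apoc3 and Fabp1, the liver fatty acid binding protein, changed by -1.18, -1.14 and -1.19. Of 34 secreted plasma protein genes 8 were lower and 1 higher (Itih3, a hyaluronan-binding plasma protein, at 1.44), with a median of -0.23. Without marked barcodes 3 were lower and 4 higher, with a median of 0.08. No gene of the list was lower without ND, without HFD or at a limit of 20% mitochondrial counts, and 4 were without HFD_HDCA. In these settings 1.56%, 4.55%, 1.77% and 0.435% of all genes were lower, in the same order. Within 5 bins of depth 3 of 34 were higher and 5 lower (median 0.15). Without marked barcodes these depth-matched counts were 20 and 5 (median 0.30), where 13.9% of all genes were higher and 9.37% lower. Among cells of at least 1000 UMIs 5 were higher and 2 lower (median 0.25), and under 2000 UMIs 1 and 12 (median -0.21). The summed level of the list stood at 0.798, 0.470 and 0.484 of that of the other cells in HFD_HDCA, HFD and ND, and at 0.854, 0.506 and 0.791 without marked barcodes. The sum was thus lower in every library. These sums are in CPM, whereas the list medians above also carry the trimmed mean normalisation. In CPM the list medians of the log2 ratios without marked barcodes were 0.08, -0.61 and -0.07 in HFD_HDCA, HFD and ND. Apoa2, Apoc1 and Apoc3 were the 3 lower without marked barcodes when the highest 5% was taken anew over all depths. Of the 12 hepatocyte markers 7 were lower over all barcodes and 2 without marked ones, 0 without ND, 1 without HFD and 3 without HFD_HDCA. Within 5 bins of depth 0 were higher and 4 lower, and without marked barcodes 4 and 4. Alb, serum albumin, was not called over all barcodes (-0.83, SE 0.41, edgeR adjusted p = 0.16).

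Ribosomal protein genes showed the opposite dependence on marked barcodes. Of 80 tested, 13 were lower and none higher over all barcodes (median -0.31), and 37 were lower without marked barcodes (median -0.67). With total counts in place of the trimmed mean normalisation, which moved the median of all genes to -0.15, 19 were lower and none higher, where 12.8% of all genes were higher and 11.7% lower. Without ND, without HFD_HDCA and at a limit of 20% mitochondrial counts 0 were lower, and without HFD 4. In these settings 1.56%, 0.435%, 1.77% and 4.55% of all genes were lower, in the same order. Within 5 bins of depth 29 of 80 were lower and none higher (median -0.30), where 7.58% of all genes were lower. Without marked barcodes this was 55 of 80 (median -0.41, 9.37% of all genes), and among cells of at least 1000 UMIs 3 of 80 (1.94%). The 10 lowest named genes rested on few counts, 0 to 17 UMIs per library in the nuclear-RNA-rich cells. Among them Ethe1, a mitochondrial sulfur dioxygenase, stood at 42.0, 30.0 and 19.9 CPM in nuclear-RNA-rich cells of HFD_HDCA, HFD and ND, against 128, 125 and 159 CPM in the other cells (-1.97, SE 0.42, edgeR adjusted p = 0.0018). Immp1l, a mitochondrial inner membrane peptidase (-2.25), and Tmem70, an assembly factor of ATP synthase (-1.77), were called on 1, 1 and 1 and on 2, 0 and 4 UMIs. The others were A2ml1, Tmem258, Serpina12, Hsd17b2, Mup14, Ces1g and Pgk1, from -1.95 to -1.55, and Serpina12, Hsd17b2 and Mup14 were not called without marked barcodes.

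**Figure D3:**
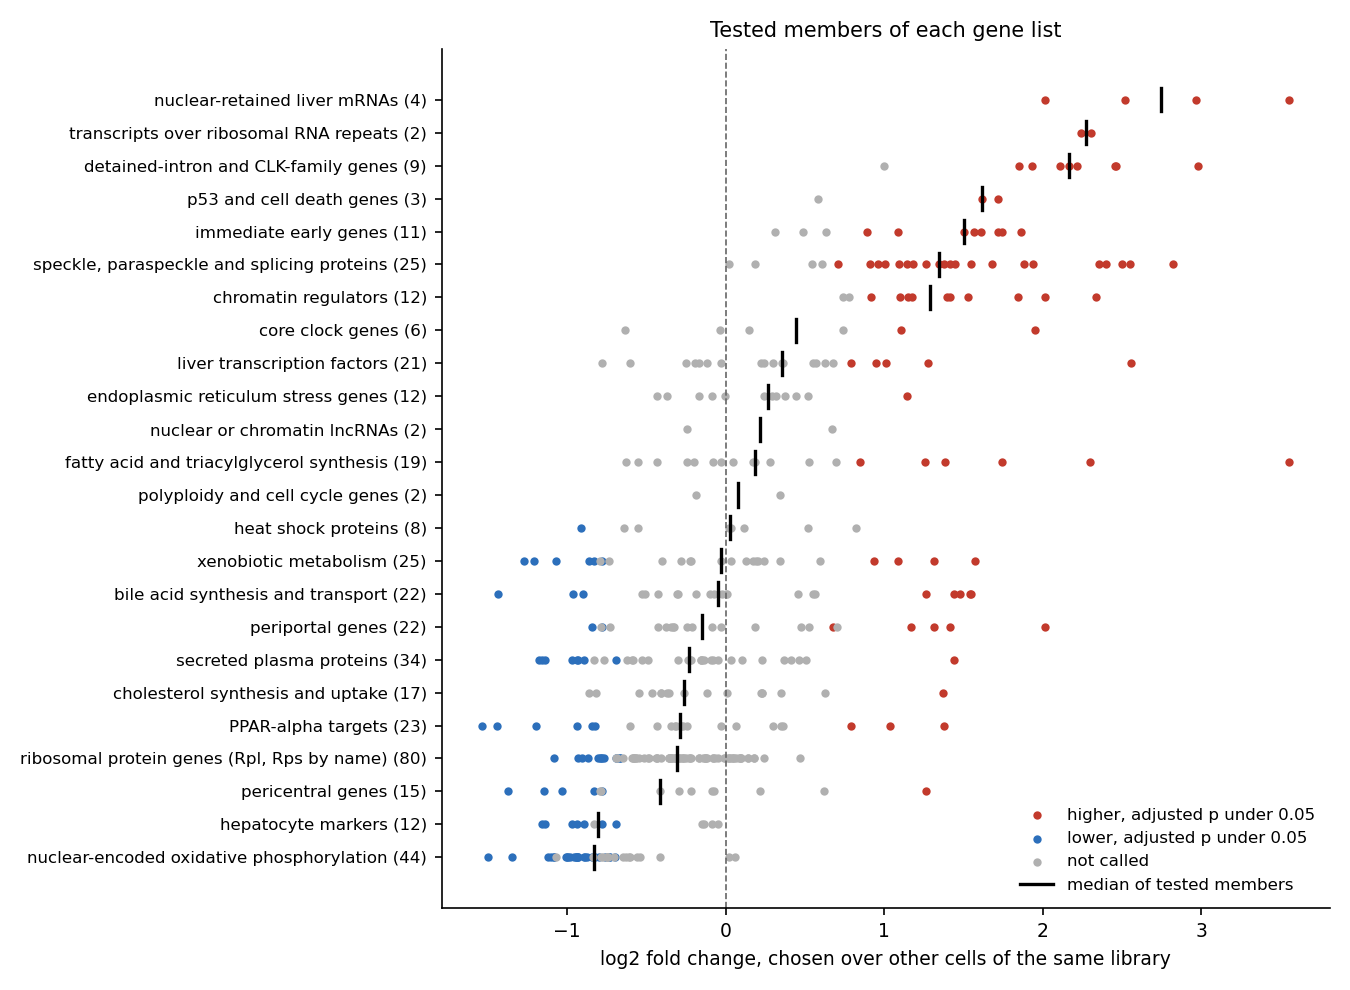
Each point is a tested gene at its log2 fold change, nuclear-RNA-rich over other cells of the same library, in rows of gene lists ordered by their median (black bar), with the number tested in brackets. Nuclear-retained mRNAs, detained-intron, immediate early, splicing and chromatin genes lie to the right of 0, and oxidative phosphorylation genes to the left, with a median of -0.83.

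Genes of liver metabolism moved in both directions. Their counts stand beside 15.5% of all genes higher and 8.43% lower, and without marked barcodes 17.4% and 8.11%. Of 19 tested genes of fatty acid and triacylglycerol synthesis 8 were higher and none lower without marked barcodes (median 0.37). Over all barcodes 6 were higher and none lower, at a list median of 0.19. Apart from Mlxipl they were Lpin2 (2.30, SE 0.27) and Lpin1 (1.38, SE 0.25), phosphatidate phosphatases, Acaca (1.74, SE 0.35), acetyl-CoA carboxylase, Srebf1 (1.26, SE 0.29), the insulin-responsive transcription factor of lipogenesis, and Fasn, fatty acid synthase. Lpin2 stood at 958, 1980 and 219 CPM in nuclear-RNA-rich cells of HFD_HDCA, HFD and ND, against 301, 275 and 59.5 CPM in the other cells. Of 23 tested targets of PPARα, the fatty acid-sensing nuclear receptor, 3 were higher, among them Angptl4 (1.38), an inhibitor of lipoprotein lipase, and 6 lower, among them Cyp4a10 (-1.44), a fatty acid hydroxylase. Without marked barcodes 3 were higher and 2 lower. Over all barcodes 0, 2 and 1 were lower without ND, HFD and HFD_HDCA, where 1.56%, 4.55% and 0.435% of all genes were.

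Bile acid genes also divided. Of 22 tested, 5 were higher and 3 lower, without marked barcodes 6 and 1, and within 5 bins of depth 2 and 7 of 23. The shares over all genes were 15.5% and 8.43%, 17.4% and 8.11%, and 10.6% and 7.58%, in the same order. Abcc2 (1.54, SE 0.23), the canalicular conjugate exporter, Abcb4 (1.44, SE 0.31), the phospholipid flippase of bile, and Cyp27a1 (1.55, SE 0.31), of the acidic pathway of bile acid synthesis, were higher in nuclear-RNA-rich cells in every library. Cyp7a1, which catalyses the rate-limiting step from cholesterol to bile acids, stood at 28.0, 660 and 19.9 CPM in nuclear-RNA-rich cells of HFD_HDCA, HFD and ND, against 14.0, 202 and 38.0 CPM in the other cells. It was called higher (1.27, SE 0.39, edgeR adjusted p = 0.024), yet its ND level was lower in nuclear-RNA-rich cells, and the direction turned to -0.22 when cells were chosen within 5 bins of depth. Nr1i3, the xenobiotic receptor CAR, had the largest log2 fold change of the liver transcription factors (2.56, SE 0.27). Of these factors 5 of 21 were higher and none lower. Among cells of at least 1000 UMIs 0 of 23 were called, where 2.09% of all genes were higher. Without HFD_HDCA 0 of 15 were called, where 2.11% of all genes were higher. Without marked barcodes 7 of 21 liver transcription factors were higher and none lower. Tef, a clock output factor, was at 1.95.

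The counts for genes zoned along the liver lobule differed between choices of cells by depth. Over all retained cells, 1 of 15 pericentral genes, Cyp7a1, was higher and 5 were lower (median -0.41), and 5 of 22 periportal genes were higher and 2 lower (median -0.15). Without marked barcodes 8 of 22 periportal genes were higher and 0 lower, and the median was 0.17, while the pericentral counts stayed at 1 and 5. The shares over all genes were 15.5% higher and 8.43% lower, and without marked barcodes 17.4% and 8.11%. None of either list was called without HFD_HDCA, where 2.11% of all genes were higher and 0.435% lower. Within 5 bins of depth 13 of 16 pericentral genes were lower and none higher (median -1.28) and 13 of 24 periportal genes were higher and none lower (median 0.40), where 10.6% of all genes were higher and 7.58% lower. Without marked barcodes these depth-matched counts were 13 of 16 and 19 of 24, against 9.37% lower and 13.9% higher over all genes. Pericentral hepatocytes surround the vein that drains the lobule and periportal hepatocytes the vessels that feed it. Named members over all cells were Aldh1a1 (-1.37), a retinal dehydrogenase, Oat (-1.14), ornithine aminotransferase, and Rgn (-1.03) on the pericentral side, and Mfsd2a (2.01), a lysophospholipid transporter, Asl (1.42), of the urea cycle, and Sds (1.31), serine dehydratase, on the periportal side. Mfsd2a was almost silent in ND, with 19.9 CPM in nuclear-RNA-rich cells, against 15.4 CPM in the other cells, and stood at 916 and 975 CPM in HFD_HDCA and HFD nuclear-RNA-rich cells, against 259 and 203 CPM.

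Xenobiotic metabolism likewise showed no common direction, with 4 of 25 tested genes higher and 6 lower, and 3 and 10 within 5 bins of depth. Over all genes 15.5% were higher and 8.43% lower, and within 5 bins of depth 10.6% and 7.58%. Por, the electron donor of microsomal P450 enzymes, stood at 392, 1080 and 69.8 CPM in nuclear-RNA-rich cells of HFD_HDCA, HFD and ND, against 142, 243 and 71.5 CPM in the other cells (1.58, SE 0.32, edgeR adjusted p = 0.0012), and its ND levels lay close together. Alas1, the first enzyme of haem synthesis, reached 1.32. The glutathione transferases Gstp1 and Gstm1 stood at -1.27 and -1.21. Counts of near-identical family members such as the Mup, Ces1, Cyp3a, Cyp4a and Gst genes are uncertain as to which copy they belong to.

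**Figure D4:**
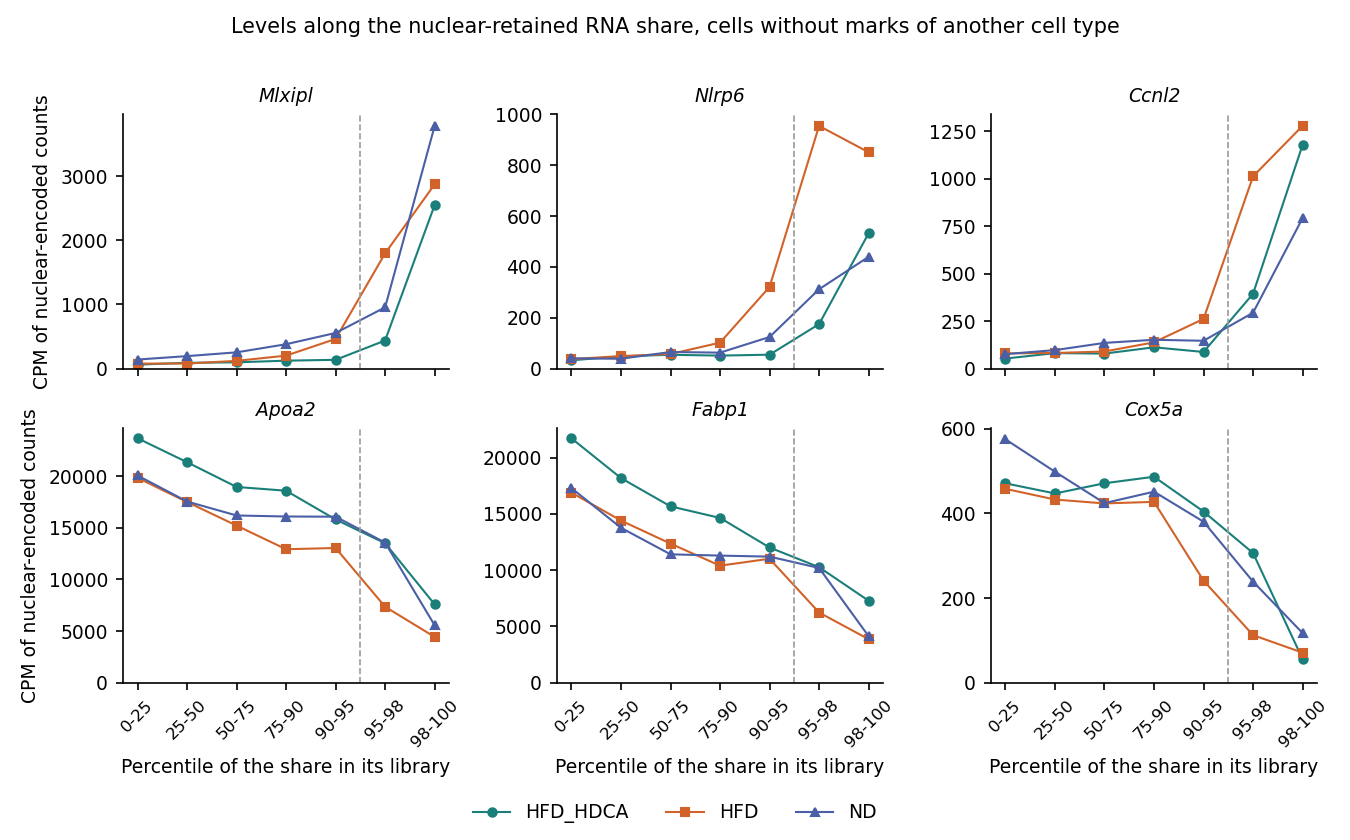
Level in CPM (y axis, linear from 0) of 6 genes in bins of the 3-gene share within each library (x axis, percentiles), over cells without marks of another cell type, with 1 line per library. To the right of the dashed line are the uppermost 5%, where Mlxipl reached 2549, 2874 and 3782 CPM in the uppermost 2% of HFD_HDCA, HFD and ND, and where Apoa2, Fabp1 and Cox5a were at their lowest.

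Levels followed the share also among cells that the rule did not take. In unmarked cells the Mlxipl level was 61.7, 77.6 and 141 CPM in the lowest 25% of shares in HFD_HDCA, HFD and ND, 137, 462 and 556 CPM between the 90th and 95th percentile, 437, 1798 and 955 CPM between the 95th and 98th, and 2549, 2874 and 3782 CPM above that. Ccnl2 ran along the same bins at 52.7, 79.8 and 76.1 CPM, then 87.4, 261 and 146 CPM, 394, 1011 and 294 CPM, and 1177, 1277 and 792 CPM. For both genes the steepest step lay inside the uppermost 5% in HFD_HDCA and ND, and at its lower edge in HFD. Apoa2 ran the other way, from 23685, 19848 and 20077 CPM in the lowest 25% of shares, to 7592, 4435 and 5570 CPM in the uppermost 2%. Median depth was 600, 501 and 659 nuclear-encoded UMIs in the uppermost 2% of HFD_HDCA, HFD and ND, against 1347, 926 and 1121 in the lowest 25%. The share entered the bins, and no test was made.

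Over single cells the genes most like the share were Gm42418 (mean Spearman rho 0.37 over the 3 libraries), Lars2 (0.22), Mlxipl (0.20), H2-K1 (0.18) and Luc7l2 (0.17). Those least like it were Cyb5a (-0.32), Mgst1 (-0.31), Scp2 (-0.30), Fabp1 (-0.29) and Cat (-0.28). Lars2 encodes mitochondrial leucyl-tRNA synthetase, and the 5 at the low end encode abundant proteins of the endoplasmic reticulum, cytosol and peroxisome. These coefficients run over the cells within each library, which differ in depth as well as in the share, and are a description.

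Longer transcripts were more often higher. The median longest annotated transcript was 4453 bp for genes higher in nuclear-RNA-rich cells, 1628 bp for genes lower and 2876 bp for genes not called, and the median gene span was 33658, 8979 and 21790 bp. Of the 549 genes in the shortest of 5 bins of transcript length 3.83% were higher and 20.2% lower, and of the 548 in the longest bin 33.6% were higher and 1.46% lower. The 3 libraries did so alike, with median log2 ratios of -0.45, -0.76 and -0.49 in the shortest bin and 0.38, 0.46 and 0.52 in the longest in HFD_HDCA, HFD and ND. Without marked barcodes the percentages were 5.07% and 22.5% in the shortest bin and 33.8% and 1.50% in the longest. Length is that of the annotation, since a 3′ kit reads 1 end of each transcript.

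**Figure D5:**
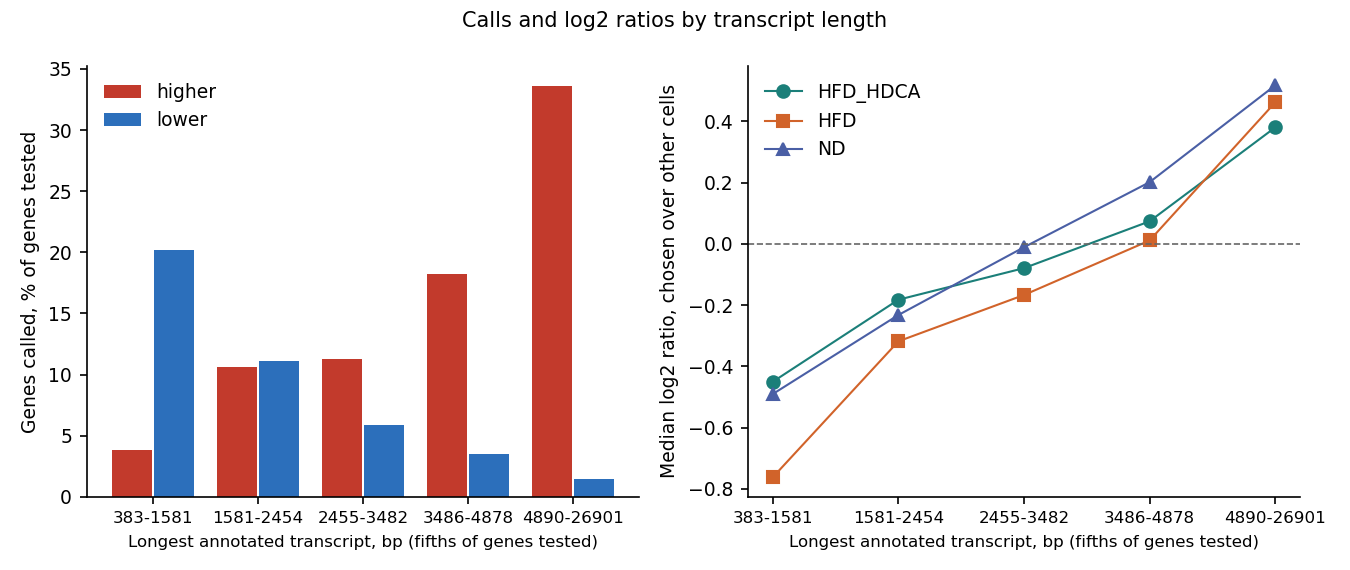
Left, percentage of tested genes called higher (red) or lower (blue) in nuclear-RNA-rich cells in 5 bins of the longest annotated transcript (x axis, bp). Right, median log2 ratio of nuclear-RNA-rich over other cells in each library, which climbs from between -0.76 and -0.45 in the shortest bin to between 0.38 and 0.52 in the longest.

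The nuclear-RNA-rich cells also held more genes at equal depth. Thinned to 300 UMIs, they had a median of 243, 244 and 245 genes in HFD_HDCA, HFD and ND, against 220.5, 219 and 218 in the other cells, a mean difference of 24.8 ± 2.25 genes (SD, n = 3, exact two-sided sign-flip permutation p = 0.25, the smallest possible). Unthinned medians were 442, 333 and 459 genes, against 617, 480 and 505. Thinning left out 10 nuclear-RNA-rich and 75 other cells, all of the HFD library. Marked barcodes were kept in this comparison, which was not made without them.

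Differences between diets inside the nuclear-RNA-rich cells have no replicate check, with 1 library per diet, and no p-value was computed. Genes were picked for this because earlier results of these data showed them to differ between the libraries. Cyp3a11, a bile acid and drug hydroxylase, stood at 105, 90.0 and 4215 CPM in nuclear-RNA-rich cells of HFD_HDCA, HFD and ND and at 182, 108 and 4519 CPM in the other cells, so the log2 ratio of HFD over ND was -5.44 in nuclear-RNA-rich cells (95% counting interval -7.00 to -4.42) and -5.39 in the other cells. Lpin1 stood at 930, 2715 and 99.6 CPM and at 477, 957 and 42.4 CPM in the other cells. The log2 ratio of HFD over ND was 4.70 in nuclear-RNA-rich cells (3.86 to 5.85) and 4.49 in the others (4.28 to 4.72). For both genes the ratio of HFD over ND in nuclear-RNA-rich cells was close to that in the other cells. Without marked barcodes it was -5.55 against -5.39 for Cyp3a11 and 4.47 against 4.51 for Lpin1. The ND level of Cyp3a11 was then 5511 CPM in nuclear-RNA-rich cells, against 4575 CPM in the other cells. The order of HFD_HDCA and HFD for Cyp3a11 in nuclear-RNA-rich cells rests on 15 and 6 UMIs and was not resolved (log2 ratio 0.15, -1.23 to 1.87).

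Selenbp2, a selenium-binding protein, had the same order of diets in both groups of cells and ratios of different size. It stood at 6.99, 3001 and 149 CPM in nuclear-RNA-rich cells of HFD_HDCA, HFD and ND, on 1, 200 and 15 UMIs, against 3.20, 461 and 252 CPM in the other cells. The log2 ratio of HFD over ND was 4.28 in nuclear-RNA-rich cells (3.57 to 5.19) and 0.87 in the other cells (0.76 to 0.99), with intervals that cover counting error only. Marked barcodes were 48 of 139 nuclear-RNA-rich cells in ND and 11 of 145 in HFD. Without them Selenbp2 stood at 260 CPM in ND nuclear-RNA-rich cells, against 255 CPM in the other cells. The ratio of HFD over ND was then 3.57 (2.97 to 4.28), against 0.86 (0.75 to 0.98). Over all barcodes Cyp7a1 showed 4.74 (3.11 to 8.14) and 2.41 (2.16 to 2.67), on 44 UMIs in HFD and 2 in ND nuclear-RNA-rich cells. Its order of HFD_HDCA and ND was the opposite in the 2 groups of cells, on 4 and 2 UMIs in nuclear-RNA-rich cells. The ratio of HFD_HDCA over HFD was -4.41 (-6.50 to -3.10) for Cyp7a1 in nuclear-RNA-rich cells and -3.84 (-4.20 to -3.51) in the other cells. Mup7, a major urinary protein, ran at 90.9, 1170 and 269 CPM in nuclear-RNA-rich cells and 117, 1986 and 335 CPM in the other cells. Without marked barcodes its ND level was 373 CPM in nuclear-RNA-rich cells, against 339 CPM in the other cells.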

How the data were processed

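The deposited values are raw UMI counts. Per the file headers Cell Ranger 5.0.0 made them, with mm10 as build per the submitters' processing notes. How barcodes were selected upstream is not given in the sources used here. Matrices held 4873 HFD_HDCA, 6290 HFD and 5755 ND barcodes with 8753465, 7593447 and 8677998 counts. A barcode was retained from 200 genes upwards if mitochondrial counts did not exceed 50%, and doublets were not removed.

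The 3 genes of the rule and 13 mitochondrial genes were left out of sums and library sizes. The 6 sums per library and cell group were compared with edgeR 4.0.16 in R 4.3.3 (quasi-likelihood, TMM, library as block). A gene was tested when its pooled abundance predicted at least 15 counts in the nuclear-RNA-rich cells, which does not use the contrast. Chosen and other cells of a library share it by design, so the library pairs the sums. The fit was run on simulated data whose dispersion was set lower than that of these data (common dispersion 0.0402). It therefore does not check the calls made here. Named genes were the 10 highest and 10 lowest called log2 fold changes with 1 sign in all 3 libraries and at least 50 CPM, without ribosomal protein and unnamed gene models, and up to 4 called members of each of 32 lists. Cells, lists and members were chosen with earlier results of these data known. Of the marker lists of other cell types, erythroid cells included, 1 gene was abundant enough to test at the main choice over all barcodes, and it was not called. Within 5 bins of depth 4 of 4 tested endothelial markers were higher (median 2.96) and 1 erythroid marker was lower (-3.80). Under 2000 UMIs 1 endothelial marker was higher (2.48) and 1 erythroid marker lower (-3.45). At 1000 UMIs or more 1 B and plasma cell marker was lower (-9.51). Intervals cover counting error only. Gene locations and lengths are from GENCODE M21, which held 32235 of 32285 identifiers.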

Additional observations from a re-analysis of the deposited data

Results flagged for a closer look

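The barcodes left out of every comparison, those under 200 genes or over 50% mitochondrial counts, carried the 3 RNAs at a higher share than the retained cells. Malat1, Neat1 and Gm26917 made 0.676% of nuclear-encoded counts in the 1873 left-out HFD_HDCA barcodes, against 0.415% in the retained cells. In the 3392 left-out HFD barcodes the share was 0.998%, against 0.419%, and in the 2979 left-out ND barcodes 0.864%, against 0.497%. They had median mitochondrial shares of 81.6%, 84.9% and 84.6% and median depths of 194, 128 and 166 nuclear-encoded UMIs in HFD_HDCA, HFD and ND. Mlxipl stood at 409, 481 and 788 CPM in them, against 114, 152 and 270 CPM in the retained cells. No test was made, since these barcodes have 1 library per diet.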

How the results depend on the processing

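The counts of 425 higher and 231 lower genes depended on how cells and genes were chosen. They were 205 and 153 for the highest 2% of shares, 85 and 79 among cells of at least 1000 nuclear-encoded UMIs, 253 and 50 at a limit of 20% mitochondrial counts, and 194 and 83 when a random 50% of the UMIs chose the cells and the rest were compared. Within 5 bins of depth 367 genes were lower, and DESeq2 called 153 lower. Gene filters of 50 and 5 expected counts and none gave 140, 740 and 754 higher genes and 63, 452 and 1371 lower. Leaving out 1 library gave 34 to 298 higher and 7 to 102 lower genes, and without marked barcodes 245 to 317 and 34 to 134. Without marked barcodes, choosing within 5 bins of depth gave 665 and 447 and the split UMIs 201 and 93. These 2 combinations and the limit of 2000 UMIs were chosen after seeing the data.

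Both sums of a library come from 1 sample, so library was kept as a block. With no replicate block 265 genes were higher and 70 lower.

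The difference in mitochondrial share was -0.423 points at the limit of 20%, and 3.47 to 7.07 points without 1 library. The ratio of median UMIs was 0.997 within 5 bins of depth (0.973 without marked barcodes), 1.05 at 1000 UMIs or more, and 0.880 under 2000 UMIs (0.875 without marked barcodes), where the choice itself sets depth. It was 0.611 to 0.723 without 1 library.

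Over 99 named genes and list members, 22 of 2115 values under another setting reversed. Within 5 bins of depth these log2 fold changes were 0.15 for Serpina12, -0.22 for Cyp7a1 and -0.14 for Acaa1b, and without marked barcodes also 0.21, -0.20 and -0.0059. Among cells of at least 1000 UMIs they were 0.16 for Serpina12, 0.032 for Hsd17b2, -1.27 for Cyp7a1, -0.077 for Atf4, -0.0073 for Tef, -0.15 for Cyp27a1, -0.20 for Abcg5, 0.033 for Gstp1, 0.014 for Fga, -0.35 for Acaa1b and -0.26 for Ces1d. With no gene filter, which moved the median of all genes to -0.44, they were -0.18 for Hnf4a, -0.36 for Hp, -0.35 for Hspa5, -0.11 for Nr1d2 and -0.078 for Creb3l3. The cause was not tested. Of the 10 lowest named genes, 9 had under 10 UMIs in every library of nuclear-RNA-rich cells.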
